A study of Homo sapiens with 9 samples.

Results

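The clustered protocadherin genes were examined in maps of DNA:RNA hybrids from a human neuroblastoma cell line. They were taken as the protein-coding RefSeq genes of chromosome 5 whose symbols begin with PCDHA, PCDHB or PCDHG, which gave 53 of the 19974 protein-coding genes of chromosomes 1 to 22 and X. The PCDHA cluster held 15 genes, the PCDHB cluster 16 and the PCDHG cluster 22. On the hg38 build they lay between 140785140 and 141513975 of chromosome 5, margins of 1 kb included.

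SH-SY5Y is an established neuroblastoma line with features of sympathetic neuron precursors. All cells carried a stable lentiviral short hairpin RNA and were kept under puromycin. The hairpin was a negative control (shNC) or was directed against TDP-43 (shTDP43), an RNA- and DNA-binding protein. Hybrids were captured with the S9.6 antibody (DRIP-seq), with 3 untreated libraries for each genotype and 1 library for each genotype after 6 h of RNase H, which removes the RNA strand of a hybrid. An input library (1 in the labels) was not analysed here. They do not say whether the replicates were separately transduced or clonal, so the p-values speak of the spread among these libraries alone. A peak list shows where hybrid signal passed a threshold, and the value used throughout is the covered length, the number of bases under peaks.

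Clustered protocadherins are cadherin-like adhesion proteins of the neuronal surface that bind copies of themselves on neighbouring cells and let the branches of a neuron tell their own from those of others. In the PCDHA and PCDHG clusters a row of variable first exons, each with its own promoter, is spliced to constant exons shared by the whole cluster. PCDHB genes have no shared constant exons. CTCF and cohesin take part in the choice of promoter, and most variable promoters carry a conserved element with the core CGCT. The C-type members, PCDHAC1, PCDHAC2, PCDHGC3, PCDHGC4 and PCDHGC5, lie nearest the constant exons and are expressed more evenly between neurons than the alternately chosen members.

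Promoter sequences, taken from RefSeq (GRCh38.p14), were found for 47 of the 53 members, all on the plus strand, so the lower coordinate of a member is its start. No entry was matched for PCDHA3, PCDHA13, PCDHB6, PCDHB11, PCDHGA12 and PCDHGC5. The sequences shown first hold the letters GTCGCT, in capitals, at the conserved element of 3 PCDHA and 2 PCDHG members. They are shown because these promoters resemble each other while their hybrid coverage was absent or found in 1 library. All are read 5′ to 3′ on the plus strand.
PCDHA1 (chr5:140786070-140786129): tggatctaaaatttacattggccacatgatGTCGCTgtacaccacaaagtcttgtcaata
PCDHA4 (chr5:140806963-140807022): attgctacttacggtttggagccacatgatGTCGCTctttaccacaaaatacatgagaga
PCDHA8 (chr5:140841114-140841173): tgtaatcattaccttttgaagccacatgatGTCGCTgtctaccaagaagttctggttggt
PCDHGA2 (chr5:141338687-141338746): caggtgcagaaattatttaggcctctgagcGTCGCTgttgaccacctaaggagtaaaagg
PCDHGA3 (chr5:141343751-141343810): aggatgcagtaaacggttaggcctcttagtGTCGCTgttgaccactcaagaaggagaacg

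GTCGCT was searched on both strands in the 300 bases of each promoter entry, from 250 before the start to 50 after it. It was present in 40.4% of members and in 10.1% of the 15813 protein-coding genes with an entry. The sequences shown above were picked from the 19 members that hold it. PCDHAC1 holds it too and had a peak at its start in 3 of the 6 untreated libraries. The longer string ATGATGTCGCT was present in 8 members, all of them PCDHA genes, and in 0.0506% of all entries, which are the same 8 genes. Both strings were chosen after the sequences had been seen. The shorter core CGCT, which both contain, was present in 97.9% of members and 79.5% of all entries. CCCTC, part of the CTCF core motif, was present in 27.7% of members and 76.0% of all entries. None of these shares was adjusted for GC content, whose median was 39.7% in members and 62.3% over all genes. The part of GC content in these differences was not tested. RefSeq lists more than 1 entry for 5 members, PCDHGB1, PCDHGB4, PCDHGB5, PCDHGB6 and PCDHGC4, and for 25.6% of genes with one, and these shares use the last listed. With the entry nearest the start of the gene span, a choice made after the data had been seen, the share of members with CCCTC was 25.5% and that with each of the other strings was the same.

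The next sequences, 250 bases before the start, contrast CpG-rich with CpG-poor members, with CpG dinucleotides in capitals. PCDHGC3 and PCDHAC1 are C-type members and PCDHA9 is an alternately chosen one.
PCDHGC3 (chr5:141475716-141475965): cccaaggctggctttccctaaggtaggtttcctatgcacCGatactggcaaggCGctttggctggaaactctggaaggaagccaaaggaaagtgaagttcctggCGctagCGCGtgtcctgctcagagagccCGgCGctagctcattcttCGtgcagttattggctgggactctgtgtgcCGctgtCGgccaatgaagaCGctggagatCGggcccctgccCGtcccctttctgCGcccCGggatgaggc
PCDHAC1 (chr5:140926049-140926298): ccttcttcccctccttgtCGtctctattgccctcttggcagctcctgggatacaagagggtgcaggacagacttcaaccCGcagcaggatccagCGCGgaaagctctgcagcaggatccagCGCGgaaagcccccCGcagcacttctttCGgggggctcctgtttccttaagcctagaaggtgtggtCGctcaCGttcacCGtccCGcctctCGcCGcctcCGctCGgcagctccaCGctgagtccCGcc
PCDHA9 (chr5:140848132-140848381): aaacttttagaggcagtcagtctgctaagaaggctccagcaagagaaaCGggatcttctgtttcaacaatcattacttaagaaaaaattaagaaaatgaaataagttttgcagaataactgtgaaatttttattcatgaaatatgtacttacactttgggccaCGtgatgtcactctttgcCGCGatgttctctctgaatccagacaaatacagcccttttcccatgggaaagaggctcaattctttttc

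These stretches held 15 CpG in PCDHGC3, 18 in PCDHAC1 and 4 in PCDHA9. Over the 300-base entries, the median GC content of members was 39.7%, against 62.3% over all genes. The 11 alternately chosen PCDHA members with an entry ran from 33.7% to 40.3%, and PCDHAC1 and PCDHAC2 stood at 66.0% and 63.0%.

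Among the libraries, replicate 1 of shTDP43 stood apart. The length under its peaks was 91.6 Mb, while the remaining 5 untreated libraries ranged from 126 to 142 Mb. Its background pileup, a measure of depth read back from the peak lists, was 1.05, and theirs 1.62 to 2.01. Several results are given with and without it, and where nothing is said it was included. The treated libraries had pileups of 0.936 for shNC and 0.991 for shTDP43. Of 8 fixed sympathoadrenal marker genes, 7 carried peaks in all 6 untreated libraries and TH, the tyrosine hydroxylase gene, carried none in any. Hybrid coverage does not measure a transcript, so this says nothing on whether TH was expressed.

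Hybrid coverage lay unevenly over the 3 clusters, and the share under peaks was lowest in PCDHA in every untreated library. From the start of PCDHGC3 to the last end of PCDHG lay 42.1% to 57.5% of the coverage of an untreated library in the clusters. Over the members' joined spans with 1 kb on each side, shNC libraries covered 2.47% ± 0.35 of PCDHA (SD, n = 3), 9.03% ± 3.27 of PCDHB and 17.4% ± 0.31 of PCDHG. The shTDP43 libraries covered 1.49% ± 0.60 (SD, n = 3), 6.15% ± 3.51 and 14.3% ± 3.38 of the same stretches. Joined spans of all protein-coding genes were covered over 8.87% ± 0.56 in shNC and 7.86% ± 1.46 in shTDP43 (SD, n = 3). The 31 other protein-coding genes within 500 kb of the clusters were covered over 30.5% ± 1.48 and 27.7% ± 4.22 (SD, n = 3). The PCDHA share was thus below, and the PCDHG share above, the share over all genes in every untreated library, while the share of PCDHB lay above it in 3 and below it in 3.

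**Figure D1:**
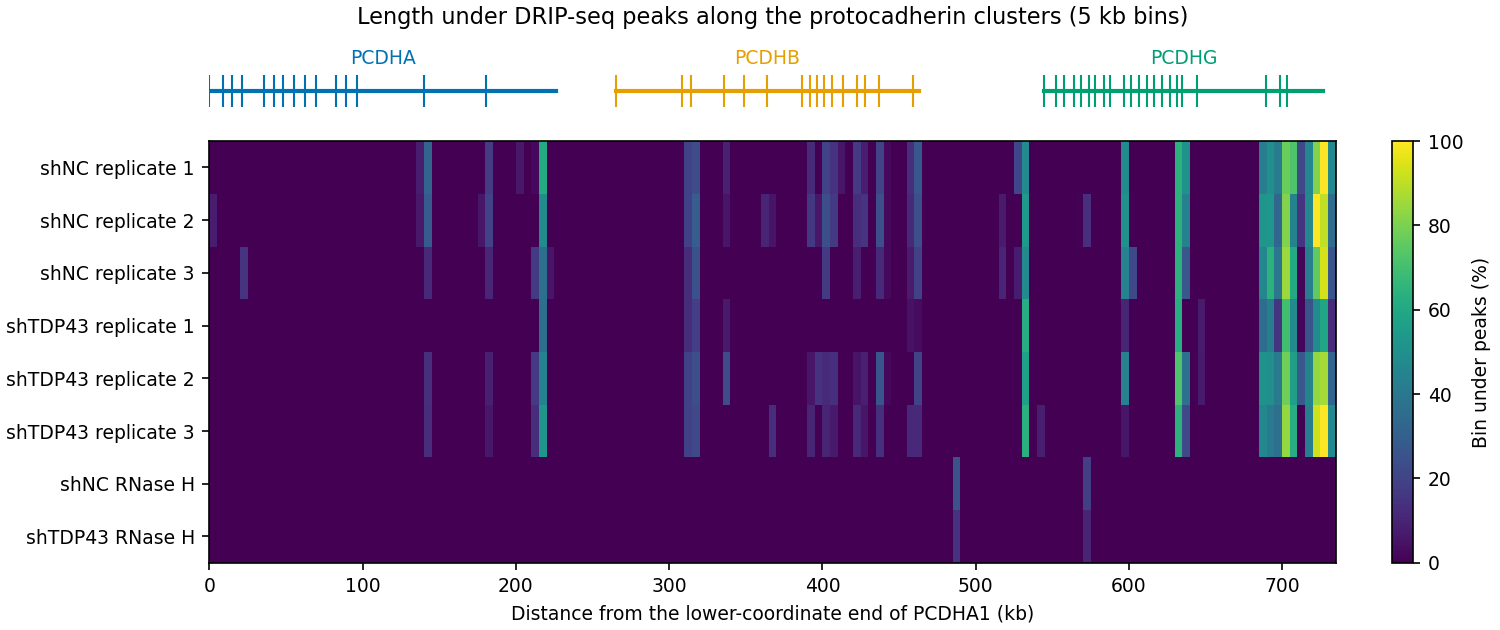
Share of each 5 kb bin under peaks along the protocadherin clusters (colour, percent), by distance from the start of PCDHA1 (x axis, kb), for the 8 libraries (rows). Ticks above the map mark member starts. In the untreated libraries the most covered bins lie at the right end of PCDHG, PCDHA is mostly empty, and the RNase H libraries are nearly blank.

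Most member starts carried no hybrid peak. In a window of 1 kb on either side of the start, 30 of 53 members had no peak in any untreated library, and 6 had one in all 6: PCDHB3, PCDHB15, PCDHGB7, PCDHGA11, PCDHGC3 and PCDHGC5. Without shTDP43 replicate 1, which was left out after the data had been seen, 7 members had one in every library, and PCDHGC4 was the added one. Among members with a promoter entry, 10.6% had a peak in all 6 libraries, against 46.2% of the 15813 genes with one. Members with no peak made up 57.4%, against 38.8% of all genes.

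**Figure D2:**
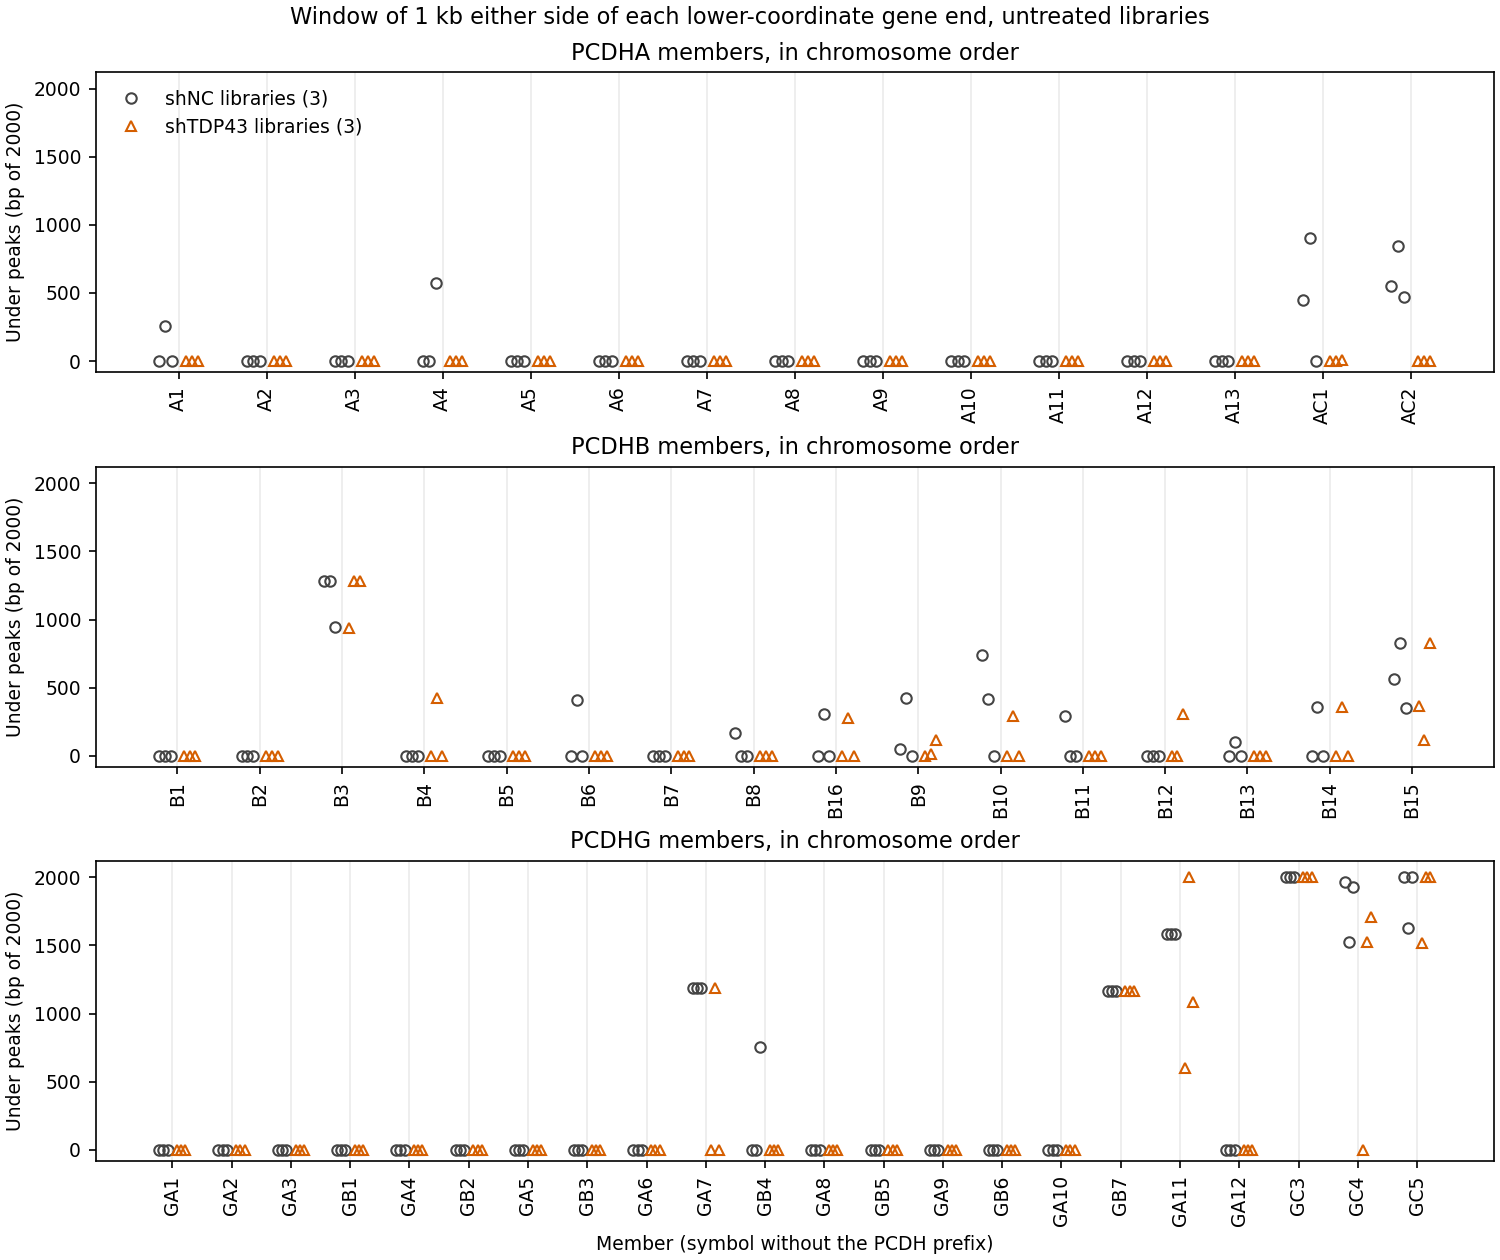
Covered length of the 2000 bp window around each member's start (y axis, bp), for every member in chromosome order (x axis), with circles for the 3 shNC and triangles for the 3 shTDP43 untreated libraries. Most members sit at 0, and PCDHGC3 sits at 2000 bp in all 6 libraries.

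In PCDHA, coverage was sparse and began at the C-type end. Across the 140 kb from the start of PCDHA1 to that of PCDHAC1, which hold 13 alternately chosen members, shNC libraries had 0.451, 0.697 and 0.746 kb covered in replicates 1 to 3. No shTDP43 library had a peak there. The shNC peaks were not at the same place: replicate 2 had one 746 bp after the start of PCDHA1, replicate 3 one 429 bp after that of PCDHA4, and replicates 1 and 2 one before that of PCDHAC1, with its last base at 140926183 and 140926057. The window at the start of PCDHA4 was covered over 571 bp in shNC replicate 3 and in no other library. PCDHA10 had no peak at its start in any of the 8 libraries.

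The start of PCDHAC1 was covered over 451 and 903 bp in shNC replicates 1 and 2, and shNC replicate 3 had no peak there. Of the shTDP43 libraries, replicate 3 had 5 bp at the edge of the window and the others none. PCDHAC2, the last variable exon before the constant exons, had 553, 848 and 467 bp at its start in the shNC libraries and no peak in any shTDP43 library. Its groups did not overlap. The authors' fold enrichment of these peaks was 4.88, 4.68 and 2.92 in shNC replicates 1 to 3, above the median of the library's peaks in replicates 1 and 2 and below it in replicate 3 (medians 4.33, 4.44 and 4.35). Further on, a region 1379 bp past the start had peaks in shNC replicates 1 and 2 alone (317 and 432 bp). Regions 2593 and 3373 bp past it had a peak in shTDP43 replicate 2 alone (430 bp) and replicate 3 alone (293 bp). In the limma fit over end windows PCDHAC2 had a log2 change of −2.79 ± 0.76 (SE, adjusted p = 0.533), so it was not called. That change depends on the 100 bp added before taking log2, since 1 group stands at 0: it was −1.13 with 500 bp added and −1.75 with peaks of −log10 q 5 or more.

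Past the start of PCDHAC2, the 33.4 kb that hold the constant exons carried 3.47, 2.41 and 2.96 kb in shNC and 1.82, 3.07 and 3.26 kb in shTDP43. The groups overlapped there. Almost all of it lay in one region, from 141000287 to 141004202, which had a peak in all 6 libraries. At the shared last end of the PCDHA genes no library had a peak.

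PCDHB members, which are short separate genes, each carried little coverage and varied most between libraries. Of 16 members, 12 had a peak at the start in at least 1 untreated library and 2 in all 6. PCDHB3 led, with 1281, 1281 and 947 bp of its start window covered in shNC and 939, 1281 and 1281 bp in shTDP43, so the groups overlapped. PCDHB15 had 561, 830 and 354 bp in shNC and 363, 112 and 830 bp in shTDP43. PCDHB10 had 738 and 416 bp in shNC replicates 1 and 2, none in replicate 3, and 289 bp in shTDP43 replicate 2 alone. PCDHB1, which stands apart from the other members at the lower end of the cluster, had no peak in any library. A region past the start of PCDHB12, from 141209909 to 141210548, had peaks in all 3 shNC libraries (612, 640 and 415 bp) and in no shTDP43 library. The next region, from 141210878 to 141211582, had 654 and 308 bp in shNC replicates 1 and 2 and 705 and 542 bp in shTDP43 replicates 2 and 3. Over the whole PCDHB12 span the groups overlapped, with 1.27, 0.948 and 0.415 kb in shNC and 0, 0.705 and 0.848 kb in shTDP43.

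In PCDHG, coverage was densest near the constant exons. From PCDHGA1 to PCDHGA7, a stretch of 52.2 kb with 9 members, at most 0.887 kb was covered in any untreated library. PCDHGA1 had no peak at its start in any library. PCDHGA7 had 1189 bp covered at its start in each shNC library and in shTDP43 replicate 2, and none in shTDP43 replicates 1 and 3. These 2 libraries had 501 and 291 bp just past the window, in a region (141382553 to 141384962) with peaks in all 6. The log2 change of the PCDHGA7 start window, −2.43 ± 1.00 (SE), was not called (limma, adjusted p = 0.533). It went from −3.66 without shTDP43 replicate 2 to −1.15 with 500 bp added before log2, and was −1.37 in a window of 2 kb on either side, with no call under any alternative. PCDHGB7 had 1168 bp in all 6 libraries. PCDHGA11 had 1582 bp in each shNC library and 600, 2000 and 1088 bp in shTDP43, on both sides of the shNC value. The 12.8 kb from PCDHGB7 to PCDHGA12 were covered over 34.2% to 43.4% in shNC and 23.2% to 41.7% in shTDP43. Here the authors' fold reached 16.4 in shNC replicate 2, the highest in the clusters.

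At their starts the C-type PCDHG genes had the highest mean covered lengths of all members. PCDHGC3 had its whole 2000 bp start window under peaks in all 6 untreated libraries. PCDHGC5 had 2000, 1627 and 2000 bp in shNC and 1516, 2000 and 2000 bp in shTDP43. PCDHGC4 had 1963, 1529 and 1928 bp in shNC, and no peak, 1529 and 1710 bp in shTDP43. The empty library was the shallow replicate 1. From the start of PCDHGC3 to the shared last end, 37.0 kb, the shNC libraries were covered over 58.0%, 55.9% and 55.2% and the shTDP43 libraries over 36.6%, 56.7% and 53.7%. That stretch held 65.2% to 74.7% of all PCDHG coverage of an untreated library. A window fully under peaks cannot rise further, so covered length says little on signal strength at PCDHGC3. The shared last end had 2000, 1514 and 2000 bp in shNC and 1089, 1329 and 2000 bp in shTDP43 (log2 change −0.15 ± 0.18 SE, limma adjusted p = 0.622).

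Several of these lengths repeat to the base because the peaks share an edge. Before immunoprecipitation the nucleic acids had been cut with BsrGI, EcoRI, HindIII, SspI and XbaI, per the labels' protocols. The 2 sequences that follow, 250 bases before the starts of PCDHGA7 and PCDHGB7, carry such a site in capitals, XbaI (TCTAGA) in the first and SspI (AATATT) in the second.
PCDHGA7 (chr5:141382492-141382741): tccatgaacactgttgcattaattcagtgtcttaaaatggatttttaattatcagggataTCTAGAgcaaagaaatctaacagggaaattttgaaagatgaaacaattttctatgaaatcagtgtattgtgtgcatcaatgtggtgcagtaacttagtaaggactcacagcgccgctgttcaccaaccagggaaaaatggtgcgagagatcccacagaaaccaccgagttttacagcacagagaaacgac
PCDHGB7 (chr5:141417427-141417676): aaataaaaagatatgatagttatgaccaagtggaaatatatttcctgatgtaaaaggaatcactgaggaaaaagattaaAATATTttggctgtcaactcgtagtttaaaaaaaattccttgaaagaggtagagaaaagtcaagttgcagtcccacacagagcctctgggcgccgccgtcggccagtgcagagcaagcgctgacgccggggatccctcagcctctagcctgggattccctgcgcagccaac

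At PCDHGA7 the first base of the peak was 141382553, the base after the XbaI cut, in the 4 libraries with a peak there. At PCDHGB7 it was 141417509, the base after the SspI cut, in all 6. Of 15 peak edges inside members' promoter windows, 10 lay at a cut of 1 of the 5 enzymes, and all 10 were of these 2 members. Over the promoter windows of all genes, 40.7% of first bases and 38.7% of last bases of peaks lay at a cut, while 0.074% of the bases in those windows are cut positions. How far the sites set the covered lengths of members was not tested.

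GC content went with coverage across members, but loosely. Over the 47 members with an entry, Spearman's rho between promoter GC content and mean covered length of the start window was 0.369 (Pearson's r 0.377), and over all genes with an entry it was 0.395 (Pearson's r 0.379). The start window is centred on the start of the gene span, while the entry used began 142 to 187 bp further on for 6 members and elsewhere for 32.3% of all genes. With the entry nearest the span start, rho was 0.389 over members (Pearson's r 0.474) and 0.429 over all genes (Pearson's r 0.419), and PCDHGB2 was the 1 member whose entry still began elsewhere. These are descriptions over genes that share libraries and, in the clusters, neighbours.

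The choice of entry moved the GC content of the PCDHGB genes. It was 60.0% for PCDHGB5 and 65.0% for PCDHGB6 at the last listed entry. At the entry nearest the span start it was 48.3% for PCDHGB5, and that of PCDHGB6 lay below the 51.3% of PCDHGB2. Neither gene had a peak at its start in any untreated library. At the nearest entries the 4 C-type members with an entry had the highest GC content, and PCDHGB2 followed. Among these 4, PCDHGC3 (59.0%) and PCDHGC4 (60.7%) had means of 2000 and 1443 bp at their starts, while PCDHAC2 (63.0%) and PCDHAC1 (66.0%) had 311 and 226 bp. PCDHGA11 (44.3%) and PCDHGB7 (47.7%) had 1406 and 1168 bp.

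**Figure D3:**
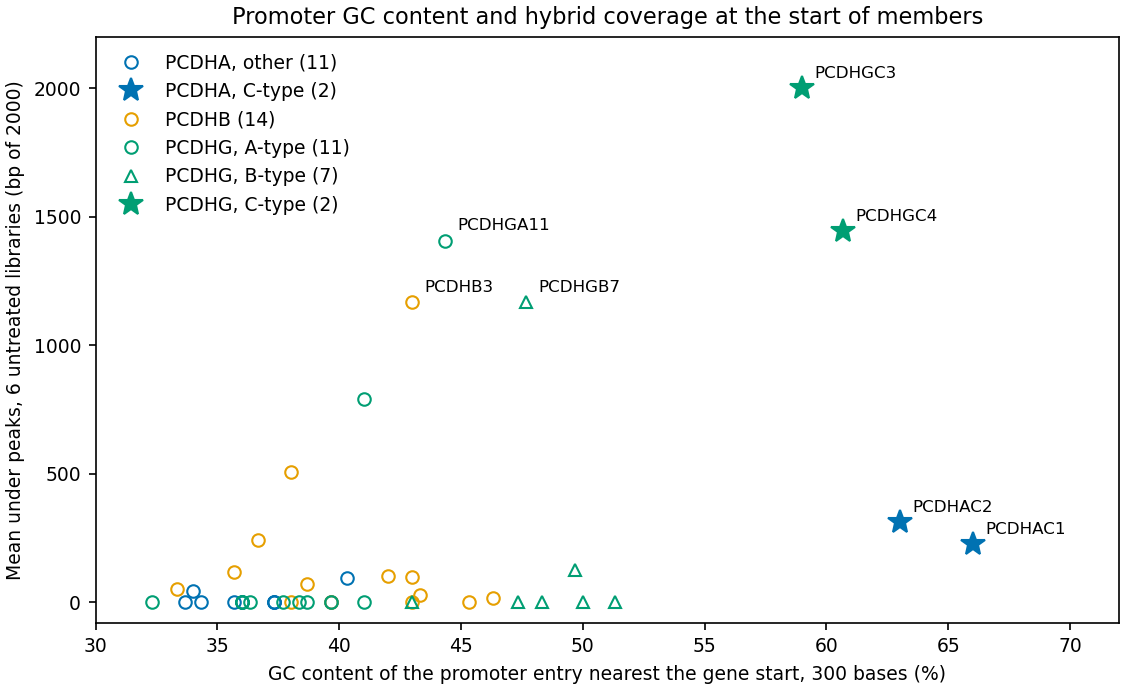
GC content of the 300-base promoter entry nearest the start of the gene span (x axis, percent) and covered length of the start window, mean of the 6 untreated libraries (y axis, bp of 2000), 1 symbol for each of 47 members. Stars mark C-type members, which lie at the right: PCDHGC3 and PCDHGC4 are high, and PCDHAC1 and PCDHAC2 are low.

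The design asks whether knockdown of TDP-43 changed hybrid coverage. In the joined spans, the mean was lower in shTDP43 for each cluster, and no difference passed a test. PCDHA had 6.34, 5.81 and 4.79 kb covered in shNC and 1.82, 4.18 and 4.19 kb in shTDP43, with every shNC library above every shTDP43 library. The means were 5.65 ± 0.79 and 3.40 ± 1.37 kb (SD, n = 3), a difference of −2.25 kb (2-sided exact permutation p = 0.1, the smallest that 3 libraries against 3 allow, and 0.267 after adjustment over 4 spans). PCDHB had 9.18, 11.0 and 5.07 kb in shNC and 2.21, 8.69 and 6.32 kb in shTDP43, so the groups overlapped (difference −2.69 kb, exact permutation p = 0.4, adjusted 0.4). PCDHG had 32.5, 32.2 and 31.4 kb in shNC and 19.5, 31.8 and 27.6 kb in shTDP43, where replicate 2 lay within the shNC range (difference −5.74 kb, exact permutation p = 0.2, adjusted 0.267).

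Covered length of the whole clusters was 46.1 ± 4.23 kb for shNC and 35.5 ± 10.8 kb for shTDP43 (SD, n = 3). The difference of −10.7 kb had an exact permutation p of 0.2 (adjusted 0.267), and it was −4.73 kb without shTDP43 replicate 1. Without that library the differences were −1.46 kb for PCDHA, −0.927 kb for PCDHB and −2.35 kb for PCDHG. That of PCDHB also moved to −1.39 kb without shNC replicate 2, −4.37 kb without shNC replicate 3 and −4.17 kb without shTDP43 replicate 2. As a share of all covered length in a library, PCDHA made up 0.00425% ± 0.00038 in shNC and 0.00281% ± 0.00072 in shTDP43 (SD, n = 3, exact permutation p = 0.1, adjusted 0.4). The other shares were lower in shTDP43 too, with exact permutation p from 0.2 to 0.5. For PCDHA the difference of shares was −0.00144 percentage points, and −0.00102 without shTDP43 replicate 1 (exact permutation p = 0.2, adjusted 0.8).

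**Figure D4:**
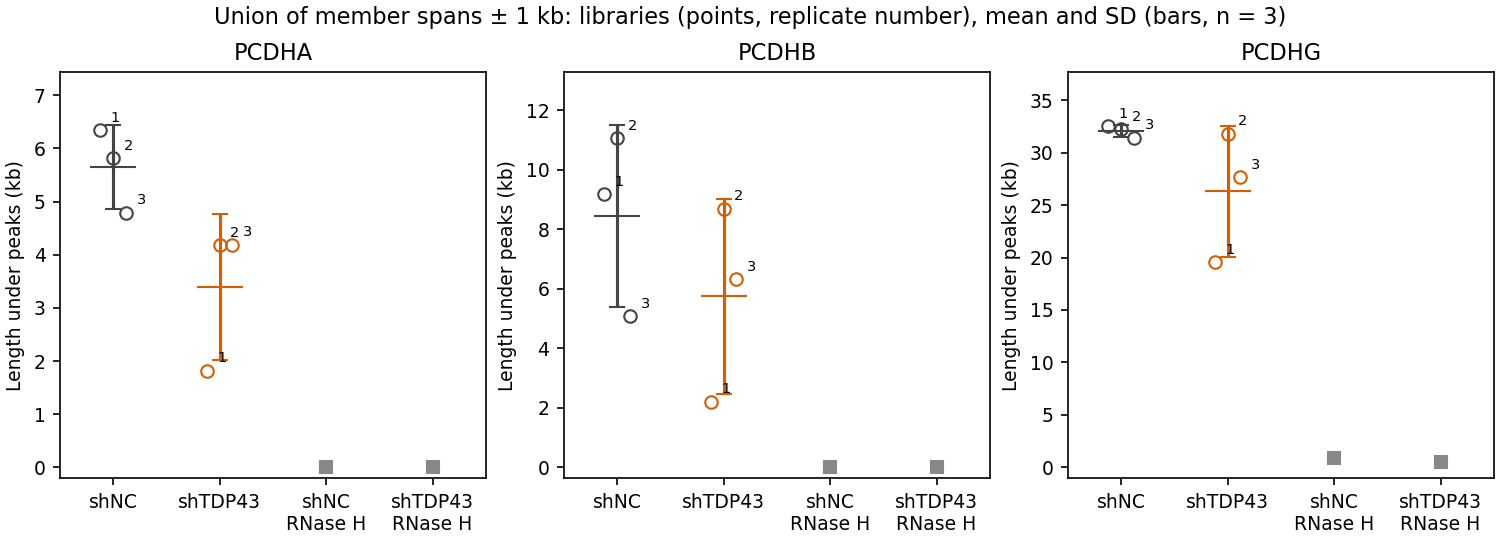
Covered length (y axis, kb) of the joined member spans of each cluster, with open circles for untreated libraries numbered by replicate, bars for mean and SD (n = 3) and grey squares for the single RNase H library of each genotype. The groups are apart in PCDHA and overlap in PCDHB and PCDHG, and replicate 1 is the lowest shTDP43 library in each.

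Gene by gene, no member span was called. The limma fit, on lengths scaled to the libraries' totals, took in 12810 genes whose mean covered length reached 500 bp. It tested 42 members and called 0 at an adjusted p under 0.05, where 0.921% of all tested genes were called. Unadjusted p was under 0.05 for 4 members, PCDHA1 to PCDHA4, and for 11.5% of all genes. The lowest was for PCDHA1 (log2 change −0.61 ± 0.22 SE, adjusted p = 0.311). PCDHA2, PCDHA3 and PCDHA4 shared a value of −0.58 ± 0.22 (SE, adjusted p = 0.342), and PCDHA5 had −0.50 ± 0.23 (SE, adjusted p = 0.470). Without shTDP43 replicate 1 these were −0.39 for PCDHA1, −0.35 for PCDHA2 to PCDHA4 and −0.28 for PCDHA5, and with peaks of −log10 q 5 or more all 5 were −3.16, with no call in either case. In unscaled covered length, groups did not overlap in 6 tested members, PCDHA1 to PCDHA4, PCDHB9 and PCDHB15, all with the shNC libraries higher. The same order, also unscaled, was found in 14.0% of all tested gene spans. The log2 change was negative in 41 of 42 members, all but PCDHB3 (0.03), with a median of −0.12, and in 43.5% of all genes, with a median of 0.05. Spans in PCDHA and PCDHG contain one another up to the shared end, so the 42 members hold 18 distinct values and their common sign is not 41 measurements. By cluster the median was −0.50 in PCDHA, −1.06 over the 5 tested PCDHB members and −0.07 in PCDHG. Without shTDP43 replicate 1 the change was negative in 37 of 43 members, with a median of −0.08 against 0.03 over all genes.

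Windows at gene ends gave a similar count. Of 71 distinct member windows, 16 reached a mean of 100 bp and were tested, and 0 were called, as were 0.0% of the 18898 windows tested over all genes (limma). Unadjusted p was under 0.05 for the starts of PCDHAC2 and PCDHGA7, against 4.94% of all windows. The log2 change was negative in 10 of the 16 member windows and in 34.2% of all windows. Without scaling the median over the 16 member windows went from −0.34 to −0.51, with 15 of the 16 negative, and the median over all windows from 0.17 to 0.00. The start of PCDHGC3, fully covered in all 6 libraries, had a log2 change of 0.19 with scaling and 0.00 without. Without shTDP43 replicate 1 the medians were −0.12 over members and 0.03 over all windows, with 11 of 18 member windows negative. With scaling and all 6 libraries, adjusted p-values of member windows ran from 0.533 to 0.999. The start of PCDHAC2 was the 1 tested member window whose groups did not overlap, all shNC libraries being higher. That order, in unscaled covered length, was found in 6.34% of all tested windows. PCDHAC2 was called at other settings: its adjusted p was 0.0187 without scaling, 0.00629 without the variance trend of limma and 0.00222 without peaks also called after RNase H, and from 0.307 to 0.783 under the remaining alternatives. Over all genes, 151 of 18898 windows were called at each of the first 2 of these settings and 2200 of 17209 at the third. Neither treated library had a peak at the start of PCDHAC2, so the third setting left its covered lengths as they were (log2 change −2.85).

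Where peaks of the 6 untreated libraries were merged into regions, the clusters held 63. Of these, 8 were present in all 6 libraries, or 12.7% against 24.2% of the 99429 regions of the genome. PCDHG held 5 of the 8, PCDHB 2 and PCDHA 1. Another 30 were found in 1 library each. The regions in all 3 shNC and no shTDP43 library were the 2 already described, near PCDHAC2 (140966785 to 140967517) and PCDHB12, and 1.27% of all regions had that pattern. None had the opposite pattern, as against 0.258% of all regions. Without shTDP43 replicate 1, 11 regions were in every library, or 17.5% against 28.5% of all regions. The count in shNC alone was again 2, or 3.17% against 1.46% of all regions.

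After RNase H the clusters were almost free of peaks. The treated shNC library had 0.931 kb covered, against 41.3 to 49.1 kb in the untreated ones, and the treated shTDP43 library had 0.492 kb, against 23.6 to 44.7 kb. No member start had a peak in either treated library. These are single libraries, and no test was made. The treated libraries were also shallower than every untreated one (pileups of 0.936 and 0.991, against 1.05 to 2.01), and the part of depth in the missing peaks was not tested. The treated peaks lay at one place, 1778 and 2217 bp after the start of PCDHGA4, and ended on the same base, 141357729. Of the untreated libraries, shNC replicate 2 had a peak overlapping them. A further 3 treated peaks, from 141274326 to 141275954, lay past the last PCDHB gene and outside all member spans, and no untreated library had a peak there.

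Other genes linked to the clusters were taken from fixed lists, and 0 genes of any list were called in the span fit (limma). Of 12 non-clustered protocadherin genes, 5 had enough coverage to be tested. PCDH12, which is also a neighbour on chromosome 5, had 7.08, 6.78 and 7.04 kb in shNC and 6.95, 9.33 and 9.42 kb in shTDP43 (log2 change 0.47 ± 0.11 SE, adjusted p = 0.115). Without peaks also called after RNase H its change turned to −0.63 and was called (adjusted p = 0.0289), and without scaling it was 0.28. PCDH17 had 1.32, 2.00 and 2.32 kb in shNC and 0.688, 0.962 and 1.04 kb in shTDP43, with no overlap (−0.80 ± 0.36 SE, adjusted p = 0.453, and −2.20 with peaks of −log10 q 5 or more). The median over the list was 0.01.

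Of 18 genes for regulators of the clusters, such as CTCF, cohesin and DNA methylation factors, 17 were tested, with a median log2 change of 0.08. CDCA7L, a chromatin-associated zinc finger protein gene, had 4.50, 4.06 and 2.81 kb in shNC and 0.806, 0.719 and 2.26 kb in shTDP43 (−1.49 ± 0.39 SE, adjusted p = 0.158). RAD21, the cleavable cohesin subunit, had 2.70, 2.50 and 2.62 kb in shNC and 1.45, 1.09 and 1.09 kb in shTDP43 (−0.87 ± 0.31 SE, adjusted p = 0.311). The groups did not overlap in either gene, nor in PCDH17, the order that 14.0% of all tested spans had in unscaled covered length. RAD21 was called without shTDP43 replicate 1 (adjusted p = 0.0438). CDCA7L was called without shTDP43 replicate 3 (adjusted p = 0.0485) and without peaks also called after RNase H (0.0458), and its change was −2.79 with peaks of −log10 q 5 or more. Without peaks also called after RNase H, 5 of 17 regulators were called in the limma fit, and CDCA7L was the 1 called lower. Called higher were DNMT1 (0.63, adjusted p = 0.0025), SETDB1 (0.68, 0.0052), MAU2 (0.52, 0.0094) and HNRNPU (1.01, 0.0169). That setting drops untreated peaks by each genotype's own treated list. The treated shNC library covered 0.732, 0.85, 2.617 and 3.585 kb of these genes, in that order. The treated shTDP43 library covered 0, 0, 1.225 and 2.128 kb. With all peaks kept their log2 changes were 0.18, 0.14, 0.17 and 0.10, with no call. The part of the filter in these calls was not tested.

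All 14 genes for partners of the cytoplasmic domains and of the actin-regulating WAVE complex were tested, with a median log2 change of −0.11. PTK2, a focal adhesion kinase, had 16.6, 15.9 and 16.0 kb in shNC and 7.22, 11.7 and 14.6 kb in shTDP43 (−0.39 ± 0.13 SE, adjusted p = 0.303). It was called without peaks also called after RNase H (−0.55, adjusted p = 0.0436). Its relative PTK2B had 2.2, 0.725 and 0.812 kb in shNC and 0.801 kb in shTDP43 replicate 3 alone (−2.50 ± 1.13 SE, adjusted p = 0.457, and −1.22 with 500 bp added). Of the 31 neighbours, 26 were tested, with a median of 0.06. Besides PCDH12, RNF14, a ubiquitin ligase gene that overlaps it, had the smallest p (0.44 ± 0.10 SE, adjusted p = 0.115), from 8.03, 7.42 and 7.69 kb in shNC and 7.32, 10.3 and 10.3 kb in shTDP43. Its change was 0.25 without scaling and 0.28 without peaks also called after RNase H.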

How the data were processed

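Each library has its own peak list, which the authors made without pooling, as peak names and labels show. Bowtie2 2.4.4, SAMtools, MACS2 2.2.6 and hg38 are named in the submitters' processing notes, with no settings. Which control served in peak calling is not given there. The deposited lists give each peak a fold ratio over background, −log10 p and −log10 q values, a score, and a summit offset, all the authors' own. The lowest −log10 q in a list was 1.30 to 1.31. The lists hold no reads, so no count test was used. Depth was read back by solving fold and p for pileup at 1000 summits a library, of which 99.3% to 100.0% gave a whole number within 0.001.

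Gene positions came from RefSeq GRCh38.p14, without exons, so a peak could not be placed in an exon or intron. Covered length was scaled to the median library total, 100 bp was added before log2, and limma 3.58.1 (R 4.3.3, empirical Bayes with a variance trend) compared 3 shNC with 3 shTDP43 libraries, with Benjamini-Hochberg adjustment over all features. Minimum means were 500 bp for spans with 1 kb on each side and 100 bp for windows of 1 kb on either side of a gene end. Joined spans were compared with exact permutation tests. Both fits were run on simulated data with the same spread for every feature and no scaling, unlike these libraries. There the span fit recovered 81% of log2 changes of 1 and the end fit 100%, with 7 of 188 and 8 of 208 calls false. This does not show what either fit could find in the real data. Interval sums differed in 0 of 500 windows from a direct count.

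Members and lists were chosen with earlier results of these data known. Printed in full were the 3 clusters, shared ends, C-type members, the 3 members with the most and the 1 with the least start coverage per cluster, those with the 5 smallest p in either fit, and 2 genes per list. Alternatives were other scaling, filters, pseudocounts, windows and thresholds, left-out libraries and a replicate block.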

Additional observations from a re-analysis of the deposited data

How the results depend on the processing

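No member span was called under any of the 13 alternatives tried, and every difference of joined spans kept its negative sign under each of its alternatives. Member end windows called went from 0 to 1, the start of PCDHAC2, without scaling, without the variance trend and without peaks also called after RNase H. The last setting drops peaks by each genotype's own treated list, which is longer for shNC. At PCDH12, then at −0.63, it was the treated shTDP43 library that had peaks (0.279 kb), and the treated shNC library had none. The setting called 1 of 4 non-clustered protocadherins (PCDH12), 5 of 17 regulators, 2 of 14 partners and 4 of 23 neighbours. Of these, 1, 1, 2 and 3 were lower. Over all genes it called 1739 of 12162 in the span fit (1070 higher and 669 lower). In the end fit it called 2200 of 17209 windows (1676 higher and 524 lower), so that higher calls outnumbered lower ones in both fits. Leaving out 1 library gave 0 to 1 called regulators and 18 to 223 called genes. Over all genes the span fit called 22 higher and 96 lower. This went to 1 and 19 without scaling, 36 and 160 with 500 bp added, 14 and 61 without the variance trend, and 3 and 30 with peaks of −log10 q 5 or more. The end fit went from 0 to 151 windows both without scaling and without the trend. Without scaling the median log2 change moved from 0.05 to −0.15 over all genes and from −0.12 to −0.31 over members, and for end windows from 0.17 to 0.00 over all.

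Same-numbered libraries showed no pairing over spans: their deviations correlated at −0.17, 0.06 and −0.17, and no library correlated best with its own number. With 3 libraries a group such correlations cannot tell whether the libraries were handled in pairs. With a replicate block 0 members were called, all genes called went from 118 to 74, and end windows from 0 to 93. For the joined spans the paired exact permutation p could not go below 0.25. Peak lists drop signal under the threshold, so a length of 0 is no absence of hybrids at this depth.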
